A study of Mus musculus with 8 samples.

Results

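The genes described here are 10 genes of autophagy, chosen by name for their place in the pathway: Tfeb, Ulk1, Becn1, Wipi1, Atg5, Atg12, Atg16l1, Map1lc3b, Gabarapl1 and Sqstm1. These genes, and the further gene lists below, were chosen with earlier results of these data known. All 10 were found among the 55341 gene symbols of GENCODE release M21. H3K27ac, a histone acetylation found at active promoters and enhancers, was profiled by ChIP-seq in mouse primary hepatocytes (MPH) from adult male wild-type C57Bl6 mice. MPH were kept in serum-free medium and received, for 4 h, either 1 µM thapsigargin, which blocks the calcium pump of the endoplasmic reticulum (ER) and so provokes ER stress (ERS), or the vehicle, 0.04% DMSO. Each treatment gave 3 H3K27ac libraries from independent hepatocyte preparations and 1 input library, 8 libraries in all. What the files hold is the outcome of that comparison, as 3 lists of genome regions on mm10 called H3K27ac UP, DOWN or unchanged upon thapsigargin.

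In macroautophagy a cup-shaped membrane grows around cytoplasm, closes into an autophagosome and fuses with lysosomes, where the content is degraded. A kinase complex with ULK1 starts the process, a lipid kinase complex with BECN1 marks the membrane with a phosphoinositide that WIPI1 binds, and the conjugate of ATG5 and ATG12, held by ATG16L1, attaches ATG8-like proteins such as LC3B and GABARAPL1 to lipid. Receptors such as p62, the product of Sqstm1, tie ubiquitinated cargo to these proteins, and TFEB activates genes of autophagy and lysosomes. Hepatocytes rely on autophagy to turn over organelles, glycogen, lipid droplets and protein aggregates, and the unfolded protein response is known to raise several of its genes through ATF4 and CHOP.

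A region was UP or DOWN when the authors' test, paired by preparation, gave a false discovery rate (FDR) of at most 0.05 and when UP bins outnumbered DOWN bins by a ratio of at least 2, or at most 0.5 for DOWN. Unchanged regions had a higher FDR, which does not show that their H3K27ac stayed the same. Regions with a low FDR and bins in mixed directions were discarded by the authors, so a place without a listed region is not shown to lack H3K27ac. The lists used here give positions only, and read or signal files of the libraries were not analysed here. The depth is therefore not known from these lists, no value has an error between preparations, and widths and counts below are descriptions without a test. Hspa5 and Ddit3, textbook genes of the ERS response, had their transcription start sites (TSSs) in UP regions of 6701 bp and 6277 bp. The cell type was also looked up: 5 of 6 hepatocyte markers (Alb, Apoa1, Ttr, Serpina1a and Tat, not Cyp2e1) had a TSS in an H3K27ac region, against 3 of 16 markers of cholangiocytes, leukocytes, endothelial and stellate cells (Sox9 in an UP region, Cd68 and Stab2 in unchanged regions).

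TSSs of 3 of the 10 autophagy genes, Sqstm1, Wipi1 and Atg5, lay in H3K27ac UP regions. The promoters of these 3 genes are shown first, since they lay in UP regions, followed by that of Map1lc3b, which lay in an unchanged region. Each runs from 250 bases before to 50 bases after the RefSeq start site (GRCm38.p6, the build of mm10), 5′ to 3′ on the strand of the gene, and capitals mark a match to any of 7 motifs described next. The windows are chr11:50210771-50211070 (minus strand) for Sqstm1, chr11:109611340-109611639 (minus strand) for Wipi1, chr10:44268089-44268388 (plus strand) for Atg5 and chr8:121590188-121590487 (plus strand) for Map1lc3b.
Sqstm1: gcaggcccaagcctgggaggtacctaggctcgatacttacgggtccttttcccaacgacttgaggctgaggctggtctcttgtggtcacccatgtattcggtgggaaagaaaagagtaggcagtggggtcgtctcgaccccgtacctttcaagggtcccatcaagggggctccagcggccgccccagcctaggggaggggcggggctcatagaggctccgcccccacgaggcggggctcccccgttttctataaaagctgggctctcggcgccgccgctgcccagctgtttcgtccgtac
Wipi1: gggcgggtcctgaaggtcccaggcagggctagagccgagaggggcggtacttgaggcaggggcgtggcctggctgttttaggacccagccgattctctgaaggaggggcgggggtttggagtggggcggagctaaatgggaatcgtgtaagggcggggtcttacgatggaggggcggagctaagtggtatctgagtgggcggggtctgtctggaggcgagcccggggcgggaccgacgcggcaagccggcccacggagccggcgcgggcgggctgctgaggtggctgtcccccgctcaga
Atg5: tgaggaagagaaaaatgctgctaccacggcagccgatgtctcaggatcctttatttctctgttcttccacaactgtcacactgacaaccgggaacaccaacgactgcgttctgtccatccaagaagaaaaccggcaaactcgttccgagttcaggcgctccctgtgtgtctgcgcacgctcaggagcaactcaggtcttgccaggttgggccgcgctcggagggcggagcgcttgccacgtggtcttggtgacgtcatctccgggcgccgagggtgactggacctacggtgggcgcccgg
Map1lc3b: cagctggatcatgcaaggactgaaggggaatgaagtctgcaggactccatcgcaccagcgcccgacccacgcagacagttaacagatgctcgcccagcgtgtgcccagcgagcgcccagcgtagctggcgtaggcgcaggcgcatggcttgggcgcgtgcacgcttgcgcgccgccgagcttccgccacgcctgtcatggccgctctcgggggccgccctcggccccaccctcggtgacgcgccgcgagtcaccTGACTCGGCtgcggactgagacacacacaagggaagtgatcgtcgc

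The motifs were searched as fixed letters on both strands: TGATGNAA for ATF4/CHOP, TGACGTGG for the element of the unfolded protein response (UPR), CCAAT and CCACG with 9 bases between them for the ERS response element (ERSE), CACGTGAC for the TFEB site of lysosomal genes (CLEAR), TGACNNNGC for the NRF2 antioxidant response element (ARE), TGANTCA for AP-1 and GTAAACA for FOXO. An ARE match can overlap an AP-1 match. Among 32851 RefSeq promoters of this length, 3.97% held the ATF4/CHOP letters, 0.676% the UPR element, 0.119% ERSE, 2.25% CLEAR, 12.4% ARE, 7.81% AP-1 and 3.65% FOXO. The RefSeq table held 9 promoters of 7 of the 10 genes, and of these 9 only that of Map1lc3b had a match, an ARE that begins at base 5 after the start site. No match says only that these letters are not in this window. Of the 300 bases shown, 300 lay in the UP region for Sqstm1 and for Atg5, and 167 for Wipi1, whose UP region ended within the promoter. The 4 promoters shown were rich in G and C, from 59.3% in Atg5 to 69% in Wipi1, with 20 to 34 CG dinucleotides. The medians over all promoters were 52.7% and 7. Among the promoters not shown, that of Gabarapl1 had 46.3% and 12 CG, and 1 of Tfeb had 59% and 6. In the region lists, UP regions held 0.215 ATF4/CHOP matches per kb, unchanged regions 0.148 and DOWN regions 0.147. For AP-1 the values were 0.586, 0.444 and 0.373, for the UPR element 0.0196, 0.0126 and 0.0101, and for ERSE 0.0014, 0.000489 and 0.000459. UP and unchanged regions were alike for the other motifs: ARE 0.446 and 0.445, CLEAR 0.0304 and 0.0312, FOXO 0.169 and 0.171. In DOWN regions these were 0.4, 0.0193 and 0.176. Shares given below for regions of like width are over regions of any class, so they can be lower than among UP regions alone.

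The transcription factor gene Tfeb (chromosome 17, 47737030 to 47792419) was the only member with a TSS in a DOWN region. It has 14 annotated TSSs spread over its 55390 bp. The most upstream TSS lay 136 bp outside an unchanged region of 875 bp (47737166 to 47738040), which held 2 further TSSs of protein-coding transcripts. A TSS of a shorter protein-coding transcript, 26140 bp into the gene, lay in the DOWN region of 2550 bp (47761345 to 47763894), and the remaining 10 TSSs also lay in no region. Another DOWN region of 260 bp lay in an intron of Tfeb (47753958 to 47754217), 109 bp from the nearest TSS. Introns of Tfeb also held 2 unchanged regions, of 1060 bp and 432 bp, so that DOWN and unchanged regions were interleaved along the gene. Its UP region (1502 bp), at 48.3 kb from the nearest TSS, held a TSS of Tomm6, which encodes a subunit of the mitochondrial import channel, and a CLEAR match, found in 4.07% of regions of like width (within a factor of 1.2).

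Ulk1, Becn1 and Wipi1 act at the start of autophagosome formation. Ulk1 (chromosome 5, 110784488 to 110810097), which encodes the initiating kinase, had its 2 most upstream TSSs in an unchanged region of 2605 bp (110807588 to 110810192). The other 9 TSSs of Ulk1, all of non-coding or degraded transcripts, lay in no region, and 2 further unchanged regions of 673 bp and 2910 bp lay in its introns. Becn1 (chromosome 11, 101285952 to 101302286), which encodes a subunit of the PI3K complex, had an unchanged region of 676 bp (101301646 to 101302321) at 12 of its 16 TSSs, the narrowest of the regions that held a TSS of a member. Wipi1 (chromosome 11, 109573331 to 109611967) had the TSS of its 3 protein-coding transcripts in an UP region of 1567 bp (109609940 to 109611506). Its other TSS, of a transcript without a coding sequence, lay 461 bp outside that region.

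Of the 3 genes whose products form the ATG12-ATG5-ATG16L1 conjugate, Atg5 alone had its TSSs in an UP region. Both TSSs of Atg5 (chromosome 10, 44268358 to 44364291) lay in it, over 1924 bp (44267588 to 44269511), and it was the only listed region within 50 kb of a TSS and in the gene body of 95934 bp. Atg12 (chromosome 18, 46730144 to 46741580) had an unchanged region of 2964 bp at its 3 TSSs (46740610 to 46743573). This region also held a TSS of Ap3s1, a gene of vesicle sorting, so that its acetylation cannot be assigned to either gene. Atg16l1 (chromosome 1, 87755870 to 87792428) had an unchanged region of 1459 bp (87755510 to 87756968) at 7 of its 10 TSSs. An UP region of 1713 bp (87771857 to 87773569) lay in an intron of Atg16l1, 15987 bp from its 5′ end, and no TSS of any gene lay in it. It held 2 AP-1 matches and 1 ARE match, and at least as many were held by 20.5% and 51.3% of regions of like width, respectively.

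The ATG8-like genes Map1lc3b and Gabarapl1 had TSSs in unchanged regions only, with an UP region outside the gene. The same held for Ulk1 and Becn1, so it was not particular to ATG8-like genes. All 5 TSSs of Map1lc3b (chromosome 8, 121590361 to 121598760), which encodes LC3B, lay in an unchanged region of 2406 bp (121590068 to 121592473). All 4 TSSs of Gabarapl1 (chromosome 6, 129533160 to 129542346) lay in an unchanged region of 5148 bp (129532058 to 129537205), which also held a TSS of 1700101I11Rik. An UP region of 6807 bp (129524327 to 129531133), which ranked 245 of the 5508 UP regions by width, ended 2027 bp upstream of Gabarapl1. For Map1lc3b, an UP region of 4284 bp (121629033 to 121633316) began 38.7 kb downstream of the 5′ end, in the body of Zcchc14. Neither UP region held a TSS of a protein-coding gene.

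Of the 11 UP regions within 50 kb of the autophagy genes, 3 held the ATF4/CHOP letters: both of these distal regions and that of Sqstm1. These were the 3 widest of the 11, and wide regions hold such letters more often: 90.9% of regions of like width to that of Sqstm1 held at least 1 match, and the shares for the distal regions follow. The sequences shown for them were chosen after the matches were seen. Those around the distal matches are printed with 70 bases on each side, 5′ to 3′ on the plus strand, with the match itself in capitals. The region downstream of Map1lc3b held 3 matches, and 46.6% of 1924 regions of like width, of any class, held at least 1 while 3.69% held 3 or more. The region upstream of Gabarapl1 held 2, and 61% of 829 regions of like width held at least 1 while 28.1% held 2 or more. The Map1lc3b windows are chr8:121629415-121629562, chr8:121631803-121631950 and chr8:121632218-121632365 (match on the minus strand), and those of Gabarapl1 are chr6:129525573-129525720 and chr6:129526705-129526852.
Map1lc3b downstream 1: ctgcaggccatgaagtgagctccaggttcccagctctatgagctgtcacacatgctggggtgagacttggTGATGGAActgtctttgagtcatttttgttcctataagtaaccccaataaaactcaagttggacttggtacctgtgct
Map1lc3b downstream 2: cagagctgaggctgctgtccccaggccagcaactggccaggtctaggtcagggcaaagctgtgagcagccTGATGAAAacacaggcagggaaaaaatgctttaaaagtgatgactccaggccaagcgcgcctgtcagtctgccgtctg
Map1lc3b downstream 3: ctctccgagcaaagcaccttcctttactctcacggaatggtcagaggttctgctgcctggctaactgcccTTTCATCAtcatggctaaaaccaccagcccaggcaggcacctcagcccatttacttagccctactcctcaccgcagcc
Gabarapl1 upstream 1: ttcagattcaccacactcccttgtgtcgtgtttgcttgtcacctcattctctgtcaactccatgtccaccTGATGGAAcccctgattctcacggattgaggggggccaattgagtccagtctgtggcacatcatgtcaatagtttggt
Gabarapl1 upstream 2: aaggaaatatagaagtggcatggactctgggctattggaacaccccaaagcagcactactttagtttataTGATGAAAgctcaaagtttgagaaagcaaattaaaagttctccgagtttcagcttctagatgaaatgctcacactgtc

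Sqstm1 (chromosome 11, 50199366 to 50210827), the gene of the cargo receptor p62, stood apart by the width of its UP region. That region extended over 17527 bp (50196730 to 50214256), and covered 100% of the gene body and all 7 TSSs. It ranked 22 of the 5508 UP regions by width, and 95% of the UP regions that held a TSS were narrower than 8455 bp. It reached 3429 bp upstream of Sqstm1 and also held a TSS of the neighbouring gene Mgat4b, which encodes a glycosyltransferase. The acetylation upstream of Sqstm1 thus cannot be told apart from that of Mgat4b. The region also ran past the 3′ end of Sqstm1 and overlapped the body of Mrnip. Its class was given to the region as a whole, so which part of the 17527 bp rose is not known. A further UP region of 1919 bp, 13.7 kb upstream, held TSSs of Mgat4b only. A DOWN region of 1903 bp lay 40.7 kb upstream and held no TSS of a protein-coding gene.

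The wide Sqstm1 region held 12 ARE matches, 11 AP-1 matches, 4 FOXO matches and 1 ATF4/CHOP match. Of 55 regions of like width, all had at least 1 ARE match, the median was 6, and 10.9% had 12 or more. At least as many AP-1 matches were held by 16.4% of them and as many FOXO matches by 36.4%. Their median was 2 ATF4/CHOP matches, above the 1 of the Sqstm1 region. Sqstm1 is a textbook target of NRF2, and for this reason the ARE match nearest to the promoter on its upstream side is shown, with the single ATF4/CHOP match, as plus-strand sequence with 70 bases on each side and the match in capitals. The ARE letters, at 254 bases upstream of the RefSeq start site, contain an AP-1 match, as did 5 of the 12 ARE matches. The windows are chr11:50211004-50211152 and chr11:50200674-50200821.
Sqstm1 ARE: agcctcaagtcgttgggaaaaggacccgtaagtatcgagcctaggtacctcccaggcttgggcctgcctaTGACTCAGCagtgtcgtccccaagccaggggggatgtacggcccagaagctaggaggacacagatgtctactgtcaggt
Sqstm1 ATF4/CHOP: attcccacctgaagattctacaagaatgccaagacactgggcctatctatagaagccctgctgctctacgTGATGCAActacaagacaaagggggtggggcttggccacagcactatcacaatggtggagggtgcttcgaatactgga

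**Figure D1:**
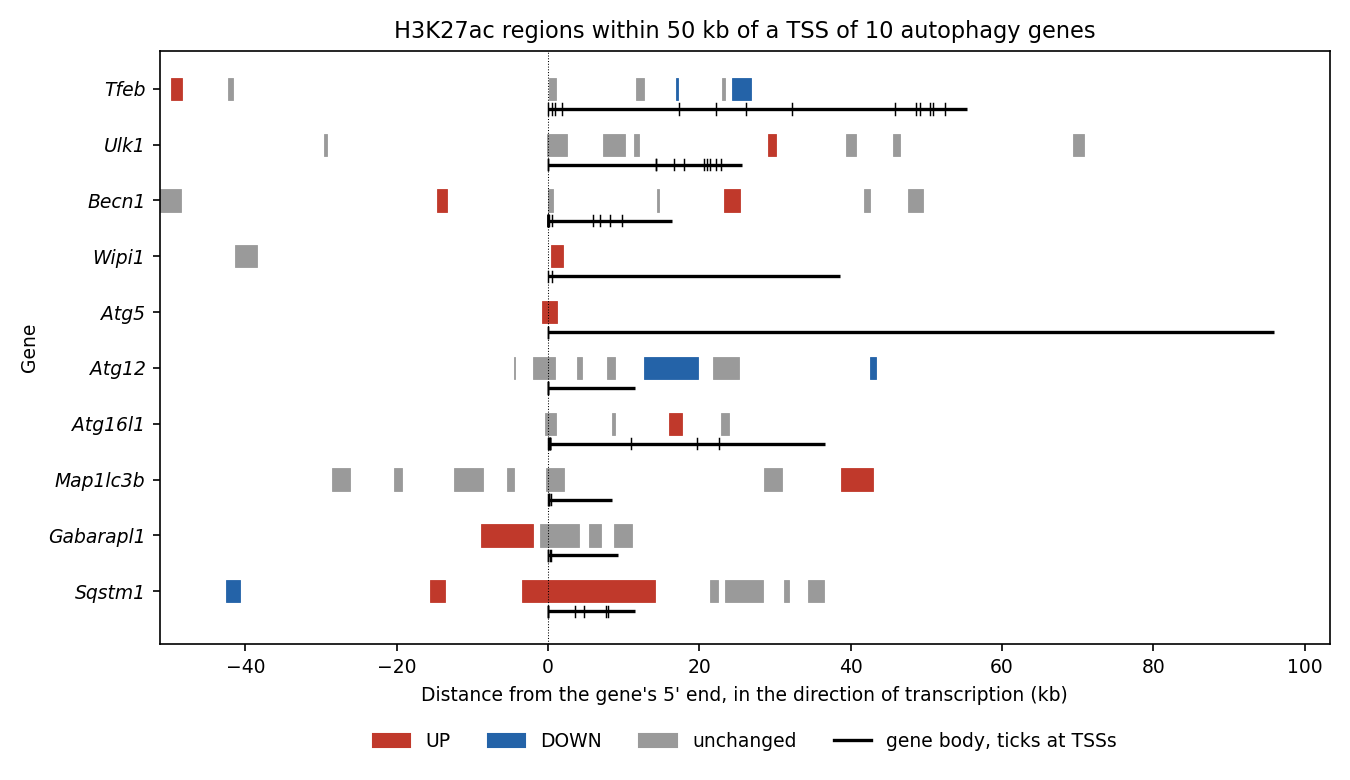
H3K27ac regions within 50 kb of a TSS of each autophagy gene, drawn to scale against the distance in kb from the gene's 5′ end in the direction of transcription, with UP regions in red, DOWN in blue and unchanged in grey. The black line under each row is the gene body with ticks at its TSSs, and the UP region of Sqstm1 (17527 bp) covers its whole gene body, while those of Gabarapl1 and Map1lc3b lie outside the genes.

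Set against other genes, the shares at TSSs were near the background. A TSS in an UP region was found for 3 of 10 autophagy genes (30%, exact 95% interval from 6.67% to 65.2%, counting error only), compared with 21.4% of all 12261 genes with a TSS in any region and 21.7% of the 9805 protein-coding genes among them. For DOWN regions it was 1 of 10 (10%, from 0.253% to 44.5%), compared with 8.91% and 8.31%. Unchanged regions held TSSs of 7 of 10 genes, compared with 73.7% and 74.9%, and Tfeb counts in both DOWN and unchanged. The intervals treat the 10 genes as independent draws, which a chosen list is not, and hold no error between preparations. No test was run, and with 10 genes a share of this size cannot be told apart from the background.

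Within 50 kb of their TSSs, the 10 genes had 54 regions, of which 11 were UP (20.4%), 5 DOWN (9.26%) and 38 unchanged (70.4%). Over all 32196 regions the shares were 17.1% UP, 10.5% DOWN and 72.4% unchanged, and over the regions within 50 kb of a protein-coding TSS they were 17.2% UP and 9.9% DOWN. At least 1 UP region lay within 50 kb of 9 of the 10 genes, all but Atg12, compared with 53.6% of protein-coding genes. The median number of regions within 50 kb was 7 for the autophagy genes, with a range from 1 to 8, compared with 4 for protein-coding genes. The part of this in the count of 9 was not tested. Within 25 kb, 7 of 10 had an UP region compared with 41.9%, without Map1lc3b and Tfeb, and within 100 kb it was 9 of 10 compared with 67.7%. A DOWN region within 50 kb was found for 3 of 10 genes (Sqstm1, Tfeb and Atg12), compared with 31.3%.

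**Figure D2:**
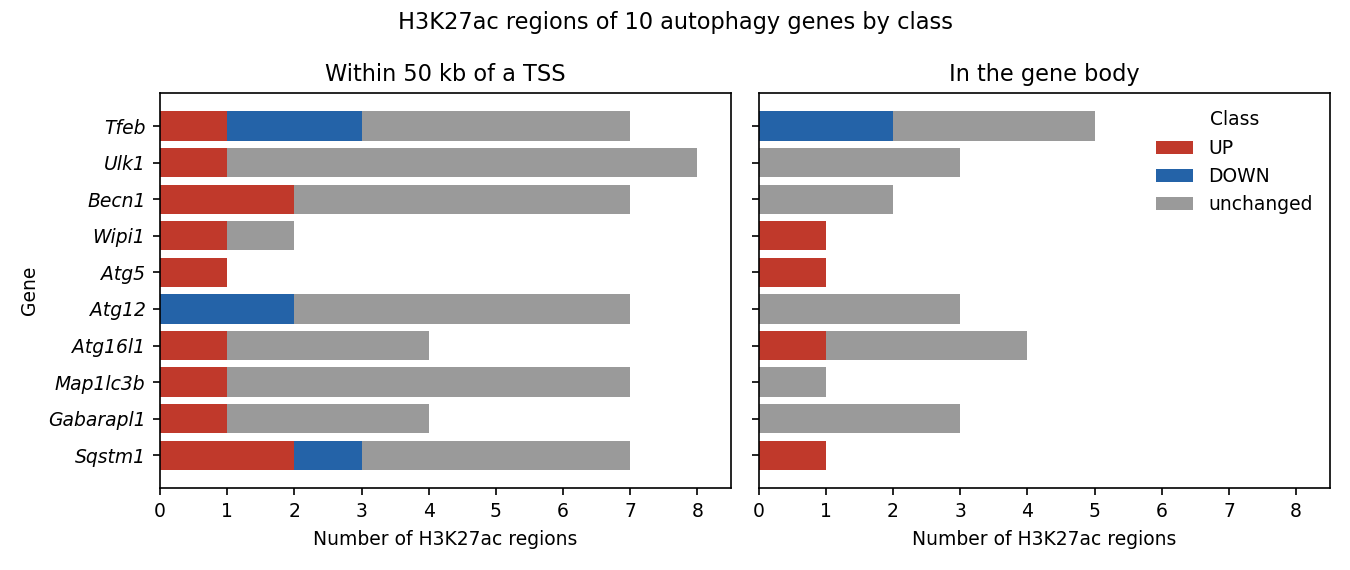
Number of H3K27ac regions by class for each autophagy gene, within 50 kb of a TSS (left) and in the gene body (right), as stacked bars. Atg12 is the only gene without an UP region within 50 kb, and Tfeb the only gene with DOWN regions in its body.

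Many of the neighbouring UP regions belonged to other genes by position. Of the 11 UP regions, 3 held a TSS of the member itself, 5 held only a TSS of another protein-coding gene, and 3 held no TSS of a protein-coding gene (those near Map1lc3b, Gabarapl1 and Atg16l1). The 5 were at Mgat4b near Sqstm1, Pus1 (1032 bp), a gene of RNA modification, near Ulk1, Tomm6 near Tfeb, and Coa3 with Cntd1 (2088 bp) and Psme3 (1357 bp), which encodes a proteasome activator, on either side of Becn1. Leaving out regions at the TSS of another protein-coding gene only, 6 of 10 autophagy genes kept an UP region within 50 kb, compared with 42.4% of protein-coding genes, and Ulk1, Becn1 and Tfeb had none. Of the 5 DOWN regions, 1 held a TSS of Tfeb, 1 was at Cdo1 (7129 bp, 12.7 kb downstream of the 5′ end of Atg12), a gene of cysteine degradation, and 3 held no TSS of a protein-coding gene. Genes were linked to regions by distance alone, and distance does not show which gene a region acts on.

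In gene bodies, 24 regions were counted, 4 UP (16.7%), 2 DOWN (8.33%) and 18 unchanged (75%). UP regions lay in the bodies of Sqstm1, Wipi1, Atg5 and Atg16l1, 4 of 10 genes compared with 31.2% of protein-coding genes. DOWN regions lay in the body of Tfeb, 1 of 10 compared with 15.4%. The share of the gene body under listed regions ran from 1.2% in Atg5 and 4.06% in Wipi1, both UP, through 25.2% in Map1lc3b and 65.8% in Gabarapl1, both unchanged, to the whole of Sqstm1. In Tfeb, 5.07% of the body was DOWN and 4.27% unchanged.

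Widths were looked at next, because the class of a region varied with its width over the series. Protein-coding genes were split into quartiles by their widest TSS region, and from the narrowest to the widest quartile the share with a TSS in an UP region went from 13% through 19.6% and 25.5% to 28.5%, and in a DOWN region from 1.22% through 3.06% and 6.73% to 22.2%. The median of the widest TSS region was 2478 bp for the 10 autophagy genes and 1782 bp for protein-coding genes. In the narrowest quartile was Becn1, in the next were Atg16l1 and Wipi1, in the next Atg5, Atg12, Map1lc3b, Tfeb and Ulk1, and in the widest Gabarapl1 and Sqstm1. Wipi1 (1567 bp) and Atg5 (1924 bp) were thus UP in regions narrower than the median of UP regions at TSSs, 2136 bp. The region of Gabarapl1, of 5148 bp, was called unchanged and exceeded the upper quartile of unchanged regions at TSSs, 2510 bp.

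**Figure D3:**
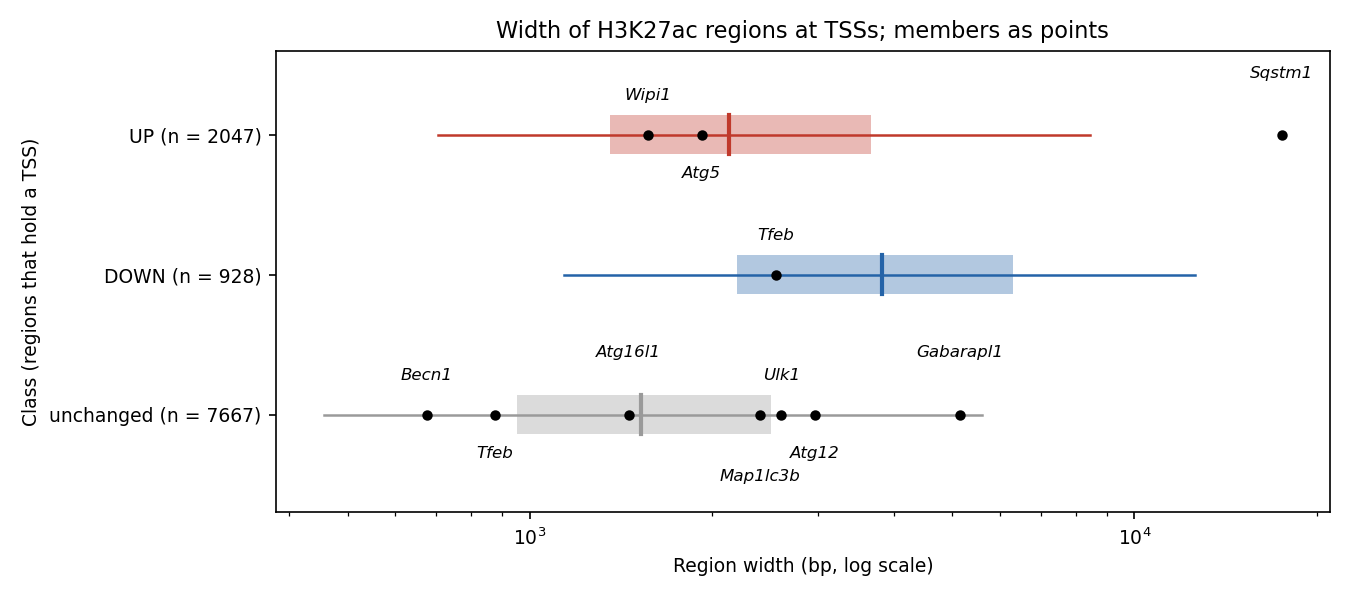
Width in bp (log scale) of all H3K27ac regions that hold a TSS, by class; boxes span the quartiles, the vertical bar is the median and lines run from the 5th to the 95th percentile. Black points are the regions at TSSs of the autophagy genes, with Sqstm1 beyond the 95th percentile of UP regions (8455 bp) and Wipi1, Atg5 and the DOWN region of Tfeb within the boxes.

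A wider list of 59 other autophagy genes, grouped by role, was looked up in the same way. Of these, 54 had a TSS in a region, 14 in an UP region (25.9%) and 6 in a DOWN region (11.1%), with Vmp1 in both, and 35 in unchanged regions only. The shares are to be read against the same 21.7% and 8.31% of protein-coding genes, and the median of the widest TSS region was 2351 bp. The 5 genes without a region at a TSS were Pik3c3, Atg9b, Ccpg1, Atl3 and Calcoco1, and for Ccpg1 and Calcoco1 a region lay only 31 bp and 13 bp away. Several genes were split between classes: Rubcn, Wdr45, Bnip3 and Bnip3l also had TSSs in unchanged regions, as did Uvrag and Nbr1. Some calls rested on part of the TSSs, as in Wdr45 (2 of 32), Atg13 (2 of 6), Mitf (2 of 7) and, for DOWN, Uvrag (1 of 8). The region was shared with a TSS of another protein-coding gene for 3 of the 14 genes in UP regions (Atg13, Wdr45 and Vmp1) and 2 of the 6 in DOWN regions (Atg4a and Nbr1), and cannot be assigned to either gene there.

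Upstream in the pathway, UP regions held TSSs of Atg13 (2943 bp), a partner of ULK1, and of Rubcn (1513 bp), which restrains the PI3K complex, while Uvrag, another subunit of that complex, had a TSS in a DOWN region of 6185 bp. Of 10 genes of the growing membrane, Wdr45 (2233 bp), a relative of Wipi1, lay in an UP region. Vmp1, an ER protein needed for autophagosome formation, had a DOWN region of 33987 bp at 4 TSSs and an UP region of 6224 bp at 2 others. Whether non-coding genes start in these Vmp1 regions was not looked up, so the DOWN region cannot be assigned to Vmp1 alone. Conjugation was the role with the most DOWN calls, 3 of 8 genes. These were Atg7 (6692 bp), the activating enzyme for ATG12 and ATG8-like proteins, with 5 DOWN and no UP regions within 50 kb, Atg10 (2486 bp), which transfers ATG12 to ATG5, and the protease gene Atg4a (2024 bp). In the same role, Atg4d (1004 bp) lay in an UP region, beside Atg5 among the 10 genes described above. Atg12 and Atg16l1, which also act in conjugation, had TSSs in unchanged regions and, like Atg5, none in a DOWN region. The roles are small and were not compared by a test.

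Among ATG8-like genes, Map1lc3a (3355 bp) and Gabarap (2775 bp) lay in UP regions, unlike Map1lc3b and Gabarapl1, and Gabarapl2 lay in an unchanged region of 2665 bp. Of 8 cargo receptor genes, 3 lay in UP regions, namely Bnip3 (4270 bp) and Bnip3l (2997 bp), receptors for mitochondria, and Tollip (2693 bp), and each was narrower than the region of Sqstm1. Nbr1, a receptor for ubiquitinated cargo like p62, had a DOWN region of 7301 bp at 10 of its 19 TSSs. Of 7 genes of receptors for ER fragments, 4 had a region at a TSS, and Tex264 (1734 bp) was UP. Mitf (1060 bp) was UP among 5 transcription factor genes, with Tfe3, the closest relative of Tfeb here, in an unchanged region of 5298 bp. Of 7 genes of fusion with lysosomes, Epg5 (3057 bp) and Plekhm1 (2687 bp) were UP and the other 5 unchanged.

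**Figure D4:**
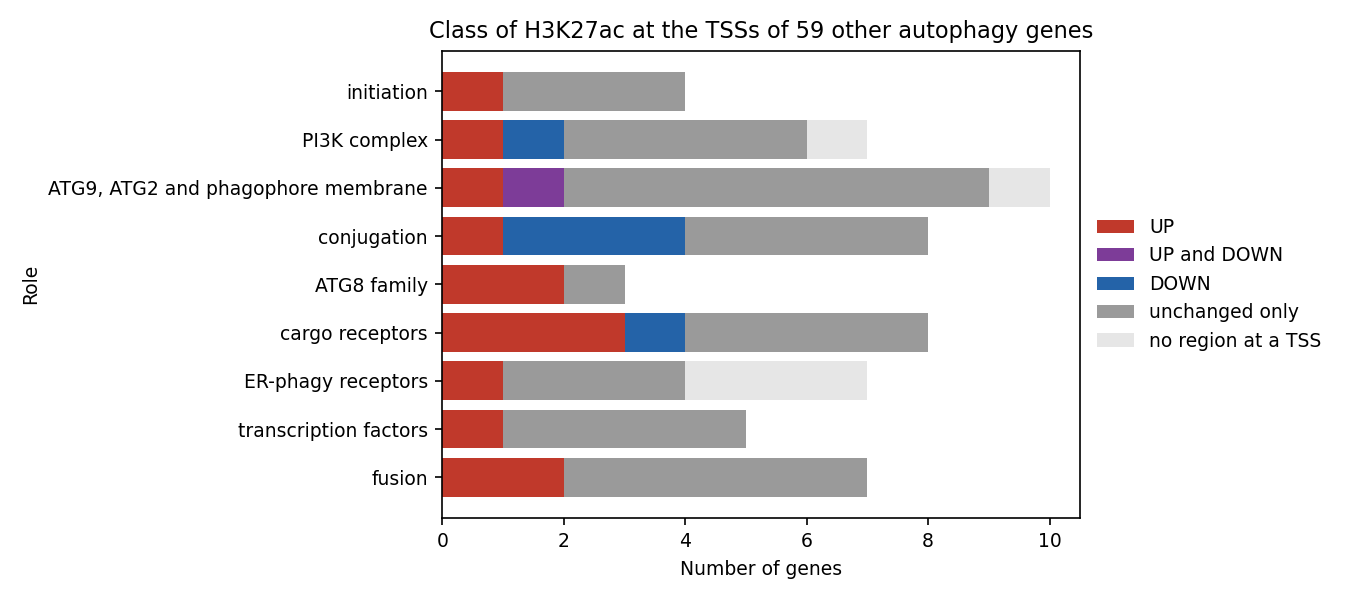
Number of the 59 other autophagy genes by role and by the class of the regions that hold their TSSs, as stacked bars. Conjugation has 3 genes with a DOWN region, the most of any role, and ER-phagy receptors have 3 genes without a region at a TSS.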

How the data were processed

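Chromatin of MPH was immunoprecipitated with an H3K27ac antibody and sequenced. The authors mapped reads with Bowtie to mm10, removed duplicates and blacklisted regions, called broad peaks with MACS2 on pooled libraries, and tested bins of 150 bp (reads extended to 200 bp, loess normalization) with csaw and a block for the mouse. The deposited lists hold region starts and ends in bp, with no count, ratio or p-value per library. Groups were taken from the labels, and the published code sets thapsigargin as the reference level, so the direction of UP and DOWN was taken from the names of the lists.

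For this report, a TSS of any of 141767 GENCODE M21 transcripts was assigned to the region that contained it, by at least 1 base (the paper used M9 and CisMapper, which was not repeated). Intervals are Clopper-Pearson. Promoters came from RefSeq, and 32851 of 32851 matched the genome sequence. Overlap and motif functions were tested on simulated data. The genes and lists were chosen with earlier results of these data known. All 10 genes were named, and of the other lists those with a TSS in an UP or DOWN region, with others for contrast; some genes are not reported here by name. Alternatives were 1 TSS per gene, protein-coding transcripts, 500 bp around a TSS, other windows, regions of at least 1 kb, region centres, and regions at other genes left out. Python 3.11.15, numpy 2.4.6, scipy 1.17.1 and matplotlib 3.10.9 were used.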

Additional observations from a re-analysis of the deposited data

How the results depend on the processing

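No paired analysis was possible because the region lists used here give positions alone, without a measurement for each library, and leaving out each replicate was not run for the same reason. Of 50 recomputed counts over the genes, 41 stayed within 1.5 times the reported count and 9 did not. With 1 TSS per gene, 0 of the 10 autophagy genes had a TSS in a DOWN region, since the 5′ end of Tfeb lies in no region, and 2 had one in an UP region, without Wipi1. In regions of at least 1 kb, DOWN regions within 50 kb numbered 3 and unchanged ones 25, and in gene bodies 1 and 11. Within 25 kb there were 3 DOWN regions, and within 100 kb 11 DOWN and 60 unchanged regions. Without regions at the TSS of another protein-coding gene, 6 UP regions within 50 kb were left. Of 140 recomputed counts of single genes, 123 stayed within that range. Depth and signal within regions are unknown, so the size of a change was not measured.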

Other observations

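Lysosomes degrade what autophagosomes deliver, and 30 lysosomal genes were looked up as a further list, with no test. Of these, 27 had a TSS in an H3K27ac region, 11 in an UP region (40.7%) and 1 in a DOWN region (3.7%), compared with 21.7% and 8.31% of protein-coding genes with a TSS in a region. The median of the widest TSS region was 2129 bp for these genes. Neither the alternative settings nor the sharing of regions with other genes was looked at for this list. The UP regions were those of the protease gene Ctsb (8170 bp), the cholesterol export genes Npc1 (17428 bp) and Npc2 (2027 bp), Gla (2208 bp), which encodes an alpha-galactosidase, Grn (4380 bp), Psap (5534 bp), the membrane protein gene Cd63 (1878 bp), and 4 of 10 genes of the proton pump that acidifies lysosomes, the other 6 having their TSSs in unchanged regions only or outside regions. Ctsb, Npc1 and Npc2 also had TSSs in unchanged regions. The pump genes in UP regions were Atp6v1a (5347 bp), Atp6v1b2 (5346 bp), Atp6v1h (2951 bp) and Atp6v0d1 (1701 bp). Some UP calls rest on part of the TSSs, as in Grn (3 of 10) and Atp6v0d1 (1 of 2). The DOWN region of 3991 bp held a TSS of Lipa, the acid lipase that breaks down cholesterol esters and triglycerides, which also had TSSs in an unchanged region of 2969 bp.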
